A study of Mus musculus with 26 samples.

Results

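Open chromatin around 6 mouse genes of epithelial and mesenchymal identity was described in pluripotent stem cells: Cdh1, Epcam, Cdh2, Vim, Grhl2 and Zeb2. Every peak of the 26 deposited ATAC-seq peak lists that overlapped the GRCm38 span of one of these genes, or the 50 kb on either side of it, was taken. These windows held 358 of the 451563 peaks. Merging overlapping peaks of all 26 lists gave 75598 regions, of which 57 lay in the 6 windows. ATAC-seq marks accessible DNA through the sites at which the Tn5 transposase inserts adapters, so a peak is a stretch with more insertions than its surroundings.

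Cdh1 encodes E-cadherin, which joins epithelial cells at adherens junctions, and Cdh2 encodes N-cadherin, which takes its place in many mesenchymal cells. In the textbook account of an epithelial-to-mesenchymal transition, the zinc-finger repressor ZEB2 binds E-box motifs in the E-cadherin promoter and silences it, while GRHL2 keeps epithelial genes active. Naive embryonic stem (ES) cells and the later epiblast both express E-cadherin, and primed epiblast stem cells (EpiSCs) are known to express N-cadherin and vimentin as well.

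The first set of libraries held 3 libraries from each of 6 cultures of mouse cells. ES cells were grown in 2iL medium and taken at passage 16. Formative stem (FS) cells, which the series places between naive and primed pluripotency, were grown in A3XR medium and taken at passage 21 (FS1) and passage 29 (FS2). EpiSCs were grown in AF medium to passage 22 (EpiSC_AF) or in AFX medium to passage 14 (EpiSC_AFX1) and passage 16 (EpiSC_AFX2). A further 8 libraries, the Rd2 set, are titled WT. Among them are 2 libraries of ES cells labelled Rd2GFP (Rd2_ES), kept in 2iL to passage 33. Rd2_EpiLC stands for 4 libraries of epiblast-like cells, which were made from ES cells over 2 days in AF medium with KSR and from which the fraction low in GFP was sorted. Their titles carry 2-part numbers (1.1, 1.2, 2.1 and 2.2), and the labels do not say whether a shared first number marks a shared sort; if it does, counts over the 4 libraries rest on 2 sorts. Rd2_AFX stands for 2 libraries of EpiSCs at passage 16 in AFX medium. Strain and sex are not given in the labels used here, and each library started from 50000 cells. FS below joins FS1 and FS2, and EpiSC_AFX joins EpiSC_AFX1 and EpiSC_AFX2. The labels do not say that libraries of a group came from separate cultures, so each p measures only the spread between these libraries, which may be technical.

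The lists hold no read counts, so the depth of each library is unknown. List length ran from 8044 to 10961 peaks in ES, 23883 to 31263 in FS1, 11796 to 14147 in FS2, 15505 to 24824 in EpiSC_AF, 17701 to 27485 in EpiSC_AFX1 and 25641 to 29575 in EpiSC_AFX2. In the Rd2 set it ran from 471 to 2576 in Rd2_ES, 7469 to 26045 in Rd2_EpiLC and 10719 to 11252 in Rd2_AFX. A longer list holds more weak peaks, so each first-set list was also reduced to its 8044 peaks with the highest −log10 p, called equal list length here. The shortest peak is 150 bp in the first set and 110 bp in the Rd2 set, so the peak calls of the sets may not be alike. The sets were never tested against each other. Of 8 naive markers, Zfp42 had a peak within 1 kb of an end in 3 of 3 ES libraries. It was found in 1 of 3 EpiSC_AF libraries and in none of FS or EpiSC_AFX. The others did not follow the labels in the full lists. No ES library had a Tfcp2l1 peak, which every EpiSC_AFX library held, as did 5 FS libraries. Tbx3, Klf4 and Klf2 had a peak in ES and in every EpiSC_AFX library, while Esrrb, Nr0b1 and Prdm14 had none in ES. At equal list length Tbx3 also had a peak in ES only. Over markers with a peak, the median difference (ES minus EpiSC_AFX) was -8.33 percentage points in full lists (6 markers) and 33.33 at equal list length (5 markers). Over all genes with a peak it was -33.33 and 0, so both marker medians lay further towards ES than those of all genes. In the Rd2 set Zfp42 had such a peak in 0 of 2 Rd2_ES libraries and in 2 of 4 Rd2_EpiLC libraries, which goes against the order of the labels, and the Rd2_ES lists are the shortest of all.

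The promoters that could be read beside these peaks are shown first, because their start sites coincide with the gene-end regions described below. They are RefSeq windows on GRCm38.p6, from 250 bases before to 50 bases after an annotated start, written 5′ to 3′ on the gene's own strand, and 3 of the 6 genes (Epcam, Vim and Zeb2) had an entry. Zeb2 has 4 such windows, of which the one that overlapped a peak is shown. Capitals mark each match to CACCTG or its reverse strand CAGGTG, the E-box form bound by ZEB and SNAI repressors. The Epcam window is chr17:87635729-87636028 on the + strand, the Vim window is chr2:13574061-13574360 on the + strand, and the Zeb2 window is chr2:45117393-45117692 on the − strand.
Epcam: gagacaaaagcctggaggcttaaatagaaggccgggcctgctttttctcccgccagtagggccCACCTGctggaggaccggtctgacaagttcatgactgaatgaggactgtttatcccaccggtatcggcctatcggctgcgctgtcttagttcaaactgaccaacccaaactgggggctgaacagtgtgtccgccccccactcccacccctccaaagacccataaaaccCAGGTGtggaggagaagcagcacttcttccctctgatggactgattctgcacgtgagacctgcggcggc
Vim: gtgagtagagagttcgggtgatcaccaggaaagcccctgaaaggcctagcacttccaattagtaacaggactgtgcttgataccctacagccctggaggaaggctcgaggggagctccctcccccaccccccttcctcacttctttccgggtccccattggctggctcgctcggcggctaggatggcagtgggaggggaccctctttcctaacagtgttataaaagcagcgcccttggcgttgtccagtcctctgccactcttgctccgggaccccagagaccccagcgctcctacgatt
Zeb2: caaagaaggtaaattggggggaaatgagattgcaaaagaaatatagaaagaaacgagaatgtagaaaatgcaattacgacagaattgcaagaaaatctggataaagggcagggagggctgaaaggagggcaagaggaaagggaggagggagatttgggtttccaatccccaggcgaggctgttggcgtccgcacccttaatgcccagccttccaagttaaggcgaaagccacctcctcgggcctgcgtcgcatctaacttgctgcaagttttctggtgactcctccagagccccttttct

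The Epcam window held CACCTG or CAGGTG at positions 64 and 232, counted from 1 at its 5′ end. Of all 32851 promoter windows of that length in the table, 20.2% held at least 1 match on either strand and 2.88% held 2 or more. The Vim window and all 4 Zeb2 windows held none. Both Epcam matches are also matches to the general E-box CANNTG, of which the Epcam window held 3 and the Vim and Zeb2 windows none, against 72.3% of all windows with at least 1. GGGCGG, the core of a GC box, had 1 match in the Epcam window (reverse strand) and none in the Vim window or the Zeb2 window shown. The 3 other Zeb2 windows had 1 each, but 2 of them overlap and their match is the same site. Of all windows, 35.7% held a match. The palindrome AACCGGTT (0.146% of windows), which is the full form of the GRHL motif, and the octamer ATTTGCAT (1.74% of windows) had no match in any window of these genes. Only exact matches were searched. The inner stretch ACCGGT of the palindrome, which the Epcam window shown does hold, was not counted over all windows. GC content was 57% for Epcam, 59.3% for Vim and 49.3% for Zeb2, beside a median of 52.7% over all windows.

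Of the 57 regions, 7 touched the stretch within 1 kb of an end of one of the 6 genes (gene-end), 24 lay elsewhere inside a gene (intragenic) and 26 lay outside. Cdh1 had 12 regions, Epcam 9, Grhl2 14, Cdh2 6, Vim 4 and Zeb2 12. In all, 29 of the 57 (50.9%) had a peak in a single library, beside 41.7% of all regions. A peak in any ES library of the first set was found in 8 regions (14%), beside 21.7% of all regions. In 37 regions (64.9%) a peak was found in FS or EpiSC libraries of the first set and in none of its ES libraries, beside 66.9% of all regions, and 1 region (1.75%) had a peak in ES alone, beside 4.7%. The ES lists are the shortest of the first set, and these shares are not read as particular to the 6 genes. Among the 8044 strongest peaks, 18 of the 57 regions had a peak. The windows held 0.456 to 1.00 peaks per 1000 peaks of a first-set list, with a median of 0.786, and 0.757 to 2.12 per 1000 in the Rd2 set.

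**Figure D1:**
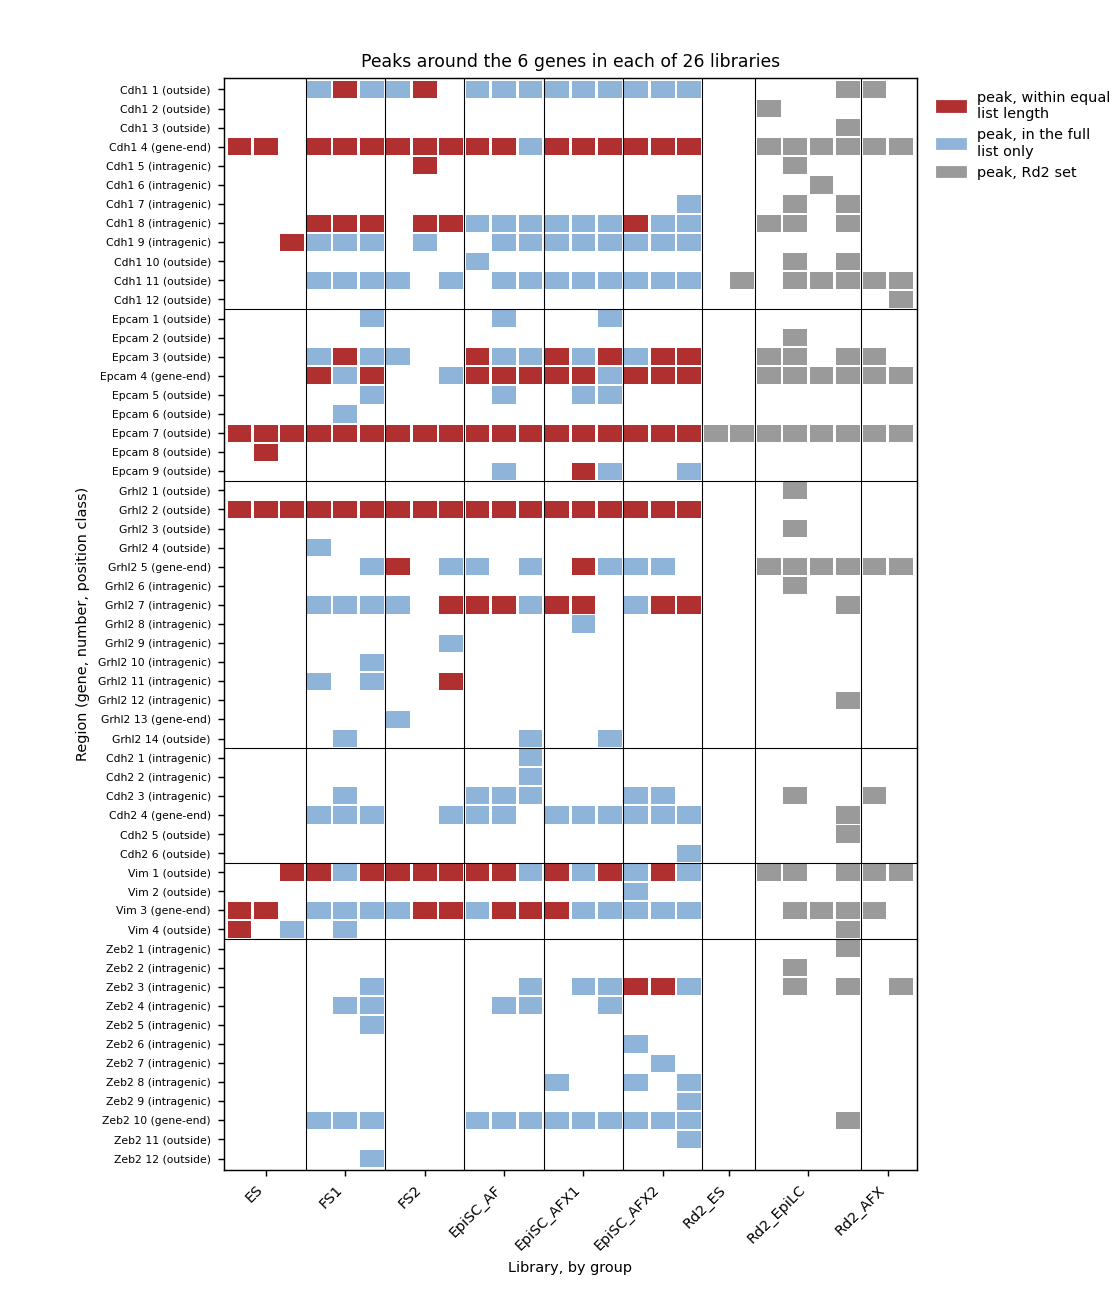
Presence of a peak in each of the 57 regions (rows, numbered along the chromosome within each gene, with their position class) in each of the 26 libraries (columns, by group). Red cells are peaks among the 8044 strongest of a first-set list, blue cells are weaker first-set peaks and grey cells are Rd2 peaks. The Cdh1 gene-end row is filled in nearly every library, the Grhl2 region 2 row in all 18 first-set libraries and no Rd2 library, and the Cdh2 rows hold no red cell.

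Of the 6 genes, Cdh1 had a gene-end peak in the most libraries at equal list length. Its gene-end region, chr8:106603155-106604370 at the lower-coordinate end of the gene (chr8:106603350-106670247), had a peak in 17 of 18 first-set lists, and in 16 of 18 at equal list length. In ES the peak ranked 4330 in replicate 1 and 2631 in replicate 2, where 1 is the strongest peak of the list, and replicate 3 had none. In FS1 it ranked 7898, 1379 and 6220 in replicates 1 to 3, and in FS2 5039, 6481 and 6103. In EpiSC_AF it ranked 6565, 5903 and 8544. The last of these is the only one of the 17 outside the strongest 8044. In EpiSC_AFX1 it ranked 5804, 3505 and 3825, and in EpiSC_AFX2 6967, 7241 and 7909. Ranks of ES therefore overlapped those of FS1 and EpiSC_AFX1, and ranks from lists of different lengths show no change in accessibility. Of the Rd2 libraries, the peak was present in 4 of 4 Rd2_EpiLC and 2 of 2 Rd2_AFX libraries and in 0 of 2 Rd2_ES libraries.

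Within the gene, a Cdh1 region at chr8:106619469-106620044, 16.1 kb above the lower end, differed from the gene-end region. It had no peak in any of the 3 ES lists. All 3 FS1 libraries held it among their strongest peaks, at ranks 2958, 2565 and 4138. In FS2 it ranked 6599 and 6521 in replicates 2 and 3 and was not found in replicate 1. All 3 EpiSC_AF lists held it, at ranks 11347, 9624 and 8527, and so did the 6 EpiSC_AFX lists, at ranks from 7716 to 15215. It was therefore present at equal list length in 5 of 6 FS libraries, 1 of 6 EpiSC_AFX libraries, 0 of 3 EpiSC_AF libraries and 0 of 3 ES libraries. Fisher's exact test of ES against FS gave p = 0.0476 for this region and an adjusted p of 0.62 over all 21842 regions tested.

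In the first set, regions outside Cdh1 were weaker than its gene-end region by median rank. A region 41.8 kb below the lower end, chr8:106561104-106561518, had a peak in 0 of 3 ES, 5 of 6 FS, 3 of 3 EpiSC_AF and 6 of 6 EpiSC_AFX full lists, and at equal list length in 1 FS1 and 1 FS2 library only. The Cdh1 window also overlaps the neighbouring gene Cdh3, so this region cannot be assigned to Cdh1 by position. A second intragenic region, chr8:106632709-106633620, had a peak in ES replicate 3 (rank 3437), the ES library without the gene-end peak, and in 12 other first-set lists at ranks from 9405 to 22642. A region at chr8:106682866-106683892 lies at an end of the neighbouring gene Tango6 and cannot be assigned to Cdh1 by position. It had a peak in no first-set ES list and in 13 other first-set lists, none at equal list length. In the Rd2 set it had a peak in 1 of 2 Rd2_ES (rank 1110), 3 of 4 Rd2_EpiLC and 2 of 2 Rd2_AFX libraries. Its ranks in Rd2_AFX were 1604 and 2413, stronger than those of the Cdh1 gene end there (best ranks 4858 and 8246).

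**Figure D2:**
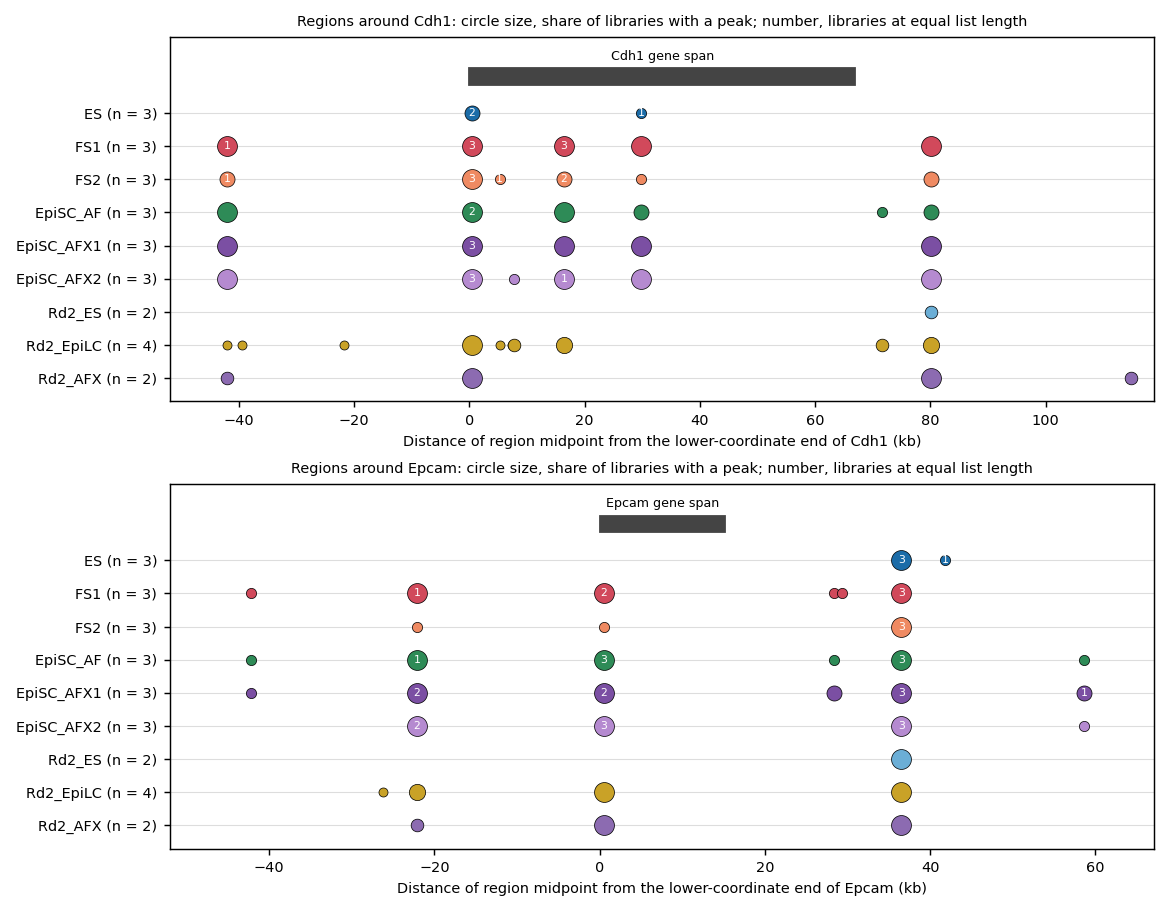
Regions around Cdh1 (upper panel) and Epcam (lower panel) by distance of their midpoint from the lower-coordinate end of the gene in kb. Each row is a group, larger circles stand for a larger share of its libraries with a peak in the full lists, and white numbers give the first-set libraries with a peak at equal list length. The first-set ES row holds 2 circles in each panel, and neither ES row has a circle at the Epcam end.

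Epcam encodes an adhesion molecule of epithelia that ES cells are also known to carry. Its gene-end region, chr17:87635692-87637248 at the lower end of the gene (chr17:87635979-87651127), covers the promoter window shown above. No ES library of either set had a peak there. FS1 libraries had it at ranks 4498, 9135 and 7739 in replicates 1 to 3, and FS2 had it in replicate 3 alone, at rank 12271. EpiSC_AF libraries had it at ranks 3661, 3443 and 4368. EpiSC_AFX1 had it at 5392, 6087 and 10667, and EpiSC_AFX2 at 6981, 2205 and 4700. All 4 Rd2_EpiLC libraries held it (best ranks 2638, 2166, 2413 and 8416), and so did both Rd2_AFX libraries (best ranks 2788 and 3718). The region was present at equal list length in 0 of 3 ES, 2 of 6 FS, 3 of 3 EpiSC_AF and 5 of 6 EpiSC_AFX libraries. Fisher's exact test of ES against EpiSC_AFX gave p = 0.0476 and an adjusted p of 0.503 over all 20475 regions tested.

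A region 21.6 kb below the Epcam end, chr17:87613407-87614358, followed a like pattern. It had a peak in 0 of 3 ES, 4 of 6 FS, 3 of 3 EpiSC_AF and 6 of 6 EpiSC_AFX full lists, and at equal list length in 0, 1, 1 and 4 of them. No region lay inside Epcam away from its ends.

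Cdh2, N-cadherin, had no peak among the 8044 strongest of any first-set list. In the full lists its gene-end region, chr18:16808056-16809800 at the higher end of the gene (chr18:16588877-16809246), had a peak in 0 of 3 ES libraries. FS1 libraries had it at best ranks 19234, 23483 and 15905, and FS2 at 8779 in replicate 3 only. EpiSC_AF libraries had it at 13248 and 15875 in replicates 1 and 2. EpiSC_AFX1 libraries had it at 8517, 17482 and 8825, and EpiSC_AFX2 at best ranks 16907, 20034 and 8968. An intragenic region 1.89 kb inside that end, chr18:16806774-16807357, had a peak in 3 of 3 EpiSC_AF, 2 of 3 EpiSC_AFX2 and 1 of 3 FS1 full lists and in no ES, FS2 or EpiSC_AFX1 list. It ranked 8440 in EpiSC_AF replicate 3, the Cdh2 peak with the lowest rank number, while the highest −log10 p of a Cdh2 peak was 7.86, at the gene end in EpiSC_AFX1 replicate 3. In the Rd2 set the gene-end region was present in 1 of 4 Rd2_EpiLC libraries and no other.

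Vim encodes vimentin, the intermediate filament protein of mesenchymal cells. Unlike those of Epcam, Grhl2, Cdh2 and Zeb2, its gene-end region had a peak in ES. The region, chr2:13573577-13574652 at the lower end of the gene (chr2:13574311-13582826), was present in 17 of 18 first-set lists. In ES it ranked 3198 and 6523 in replicates 1 and 2 and was not found in replicate 3. FS1 libraries had it at 11714, 17205 and 10061, all outside the strongest 8044, and FS2 libraries at 9935, 7511 and 7142. In EpiSC_AF it ranked 10545, 2997 and 6427. In EpiSC_AFX1 it ranked 932, 15957 and 8145, a spread that covered every other first-set library with the peak except FS1 replicate 2, and in EpiSC_AFX2 9877, 11139 and 9582. Counted at equal list length, it was present in 2 of 3 ES, 2 of 6 FS, 2 of 3 EpiSC_AF and 1 of 6 EpiSC_AFX libraries, and the types overlapped. In the Rd2 set it was present in 3 of 4 Rd2_EpiLC, 1 of 2 Rd2_AFX and 0 of 2 Rd2_ES libraries.

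The other strong region of the Vim window, chr2:13544271-13544843, lies 29.5 kb below the gene at an end of Trdmt1. It was present in ES replicate 3 (rank 2760), the ES library without the Vim gene-end peak, and in the other 15 first-set lists of FS and EpiSCs. Its ranks there ran from 3129 to 18949. ES replicate 3 thus lacked the gene-end peaks of both Cdh1 and Vim, although its list of 9705 peaks is not the shortest of the group.

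**Figure D3:**
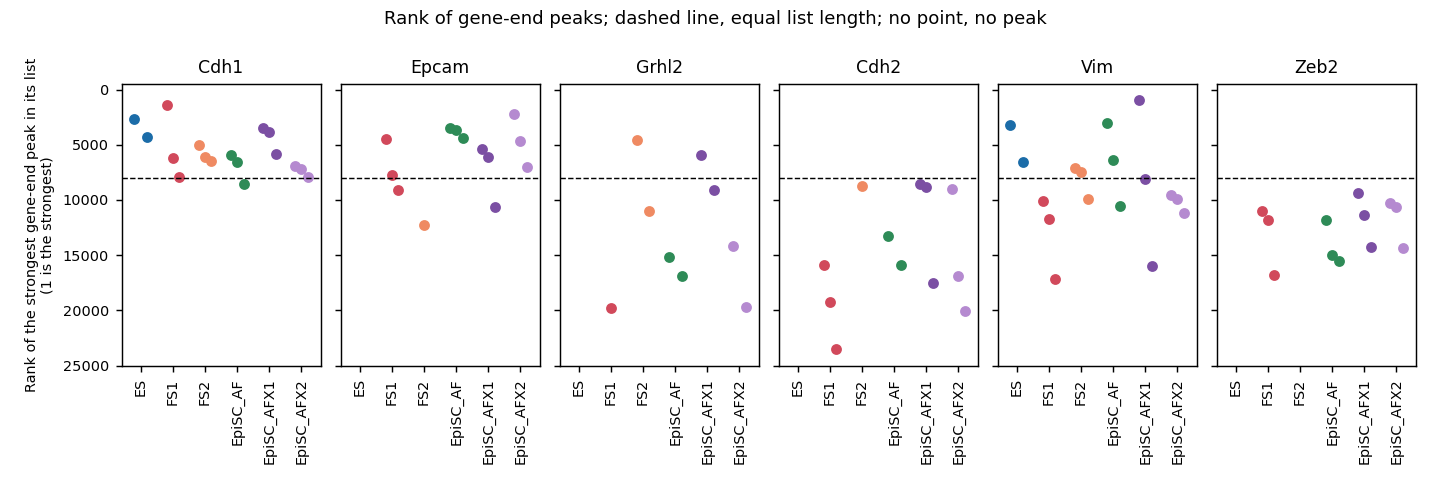
Rank of the strongest gene-end peak of each of the 6 genes in each first-set list, by group; the vertical axis runs downwards from the strongest peak and the dashed line marks the equal list length of 8044. Each point is a library, and a library without a peak has no point. Cdh1 points lie above the line except 1 in EpiSC_AF, all Cdh2 and Zeb2 points lie under it, and Epcam, Grhl2, Cdh2 and Zeb2 have no ES point.

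Grhl2 encodes a transcription factor that maintains epithelial junction genes. Its region at the lower end of the gene (chr15:37232821-37363569), chr15:37232847-37233412, had no ES peak in either set. In the first set it was found in FS1 replicate 3 (rank 19785), FS2 replicates 1 and 3 (4541 and 11035), EpiSC_AF replicates 1 and 3 (15171 and 16862), EpiSC_AFX1 replicates 2 and 3 (5918 and 9101) and EpiSC_AFX2 replicates 1 and 2 (19668 and 14184). All 4 Rd2_EpiLC libraries had it, at ranks 5656, 8939, 6491 and 10170, as did both Rd2_AFX libraries, at 3872 and 2773. An intragenic region 1.22 kb inside that end, chr15:37234042-37234659, had a peak in 0 of 3 ES, 5 of 6 FS, 3 of 3 EpiSC_AF and 5 of 6 EpiSC_AFX full lists. Counted within the strongest 8044, it was present in 0, 1, 2 and 4 of them. The second gene-end region, at the higher end, had a peak in FS2 replicate 1 only, at rank 12126.

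The region with the lowest median rank of the 57 lay 29.3 kb below Grhl2, at chr15:37203138-37203473. It was present in all 18 first-set lists, with a lowest, median and highest rank of 63, 259 and 2676, and was between 254 and 322 bp long. In ES it ranked 125, 89 and 109. No library of the Rd2 set had a peak there. Of the 1498 regions with a peak in all 18 first-set libraries at equal list length, 133 (8.88%) had none in any Rd2 library, so the Grhl2 region shared this property with other regions. The authors' fold enrichment of this peak was between 7.94 and 11.6 in its lists.

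Zeb2 encodes a repressor of epithelial genes that is also needed for neural and mesodermal exit from pluripotency. It had 12 regions, 9 of them intragenic, and none had a peak in an ES library of either set or in FS2. The gene-end region, chr2:45117072-45117580 at the higher end of the gene (chr2:44983512-45117442), overlaps the promoter window shown above. FS1 libraries had it at ranks 11024, 11778 and 16812 in replicates 1 to 3. EpiSC_AF libraries had it at 11776, 15507 and 14956, EpiSC_AFX1 at 9336, 14305 and 11325, and EpiSC_AFX2 at 14390, 10666 and 10292. It was outside the strongest 8044 in every library, and 1 of 4 Rd2_EpiLC libraries and no Rd2_AFX library held it. The 3 other Zeb2 promoter windows of the table had no peak in any library.

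Inside Zeb2, a region 54.1 kb above the lower end, chr2:45037634-45038642, was the one that entered the strongest 8044. It ranked 7590, 4154 and 11147 in EpiSC_AFX2 replicates 1 to 3. It was also present, at ranks from 17651 to 22760, in EpiSC_AFX1 replicates 2 and 3, EpiSC_AF replicate 3 and FS1 replicate 3. It was also found in Rd2_EpiLC replicates 2 and 4 and in Rd2_AFX replicate 2. Its presence thus differed between the EpiSC_AFX cultures, in 3 of 3 and 2 of 3 full lists and in 2 of 3 and 0 of 3 at equal list length, which 3 against 3 libraries cannot test at p 0.05.

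Comparing ES with FS addresses the step from naive to formative culture. At equal list length none of the 16 regions of these genes with a peak in ES or FS was present in every library of one type and none of the other, beside 3.84% of all 21842 regions. The full lists gave 0 of 32, beside 3.42% of all regions, and 0 of 6 gene ends, beside 5.61% of all genes towards FS. Over the full lists all 6 gene ends had a larger share of FS than of ES libraries with a peak, as did 9564 of all 13340 genes with a peak at an end. The median difference was -50 percentage points (ES minus FS) beside -33.33 over all these genes. Over the 4 genes with a gene-end peak at equal list length (Cdh2 and Zeb2 had none), the median was -25 points, beside 0 over all genes with a peak. Of these, 3 genes were higher in FS (Cdh1, Epcam and Grhl2) and 1 (Vim) in ES. Of all 9929 genes with a peak, 4862 were higher in FS and 3088 in ES.

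Peak number per window gave the test for each gene. At equal list length the Cdh1 window held 1, 1 and 1 peaks in ES, 2, 3 and 2 in FS1 and 1, 4 and 2 in FS2. The mean was 1.00 ± 0 (SD, n = 3) in ES and 2.33 ± 1.03 (SD, n = 6) in FS, and FS2 replicate 1 overlapped ES. The exact permutation test, two-sided over 84 assignments, gave p = 0.0833 and an adjusted p of 0.413 over all 17769 genes tested. Epcam averaged 1.33 ± 0.577 in ES and 1.5 ± 0.548 in FS, Grhl2 1.00 ± 0 and 1.5 ± 0.837, and Vim 1.33 ± 0.577 and 1.17 ± 0.753, with adjusted permutation p of 1 in each; the direction for Vim turned in the full lists. Cdh2 and Zeb2 had no peak and were not tested. No gene of the genome passed an adjusted p of 0.05 (0.0%), and 2086 had an unadjusted permutation p under 0.05. With 84 assignments the smallest p is 0.0119, and 4231 genes would have had to reach it for any to pass, whereas 1113 did.

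Comparing ES with EpiSC_AFX sets naive against primed culture, and here the full and the equal-length lists gave different pictures. In the full lists 7 of 33 regions had a peak in all 6 EpiSC_AFX libraries and in no ES library, beside 8.23% of all 51165 regions in that direction and 8.73% in either. These were 3 regions of the Cdh1 window (41.8 kb below the gene, 16.1 kb inside it and the Tango6 end). The others were 2 of Epcam (its end and the region 21.6 kb below it) and the ends of Cdh2 and Zeb2. Counted at gene ends, Epcam, Cdh2 and Zeb2 made 3 of 6, beside 15.9% of all genes with a peak at an end. Reduced to equal list length, none of 15 regions was separated, beside 5.35% of all regions, and the Epcam end came nearest with 5 of 6 EpiSC_AFX libraries against 0 of 3. EpiSC_AFX lists were all longer than ES lists, and the part that list length plays in the full-list count was not tested beyond this step. Over all 6 genes the median difference at gene ends in the full lists was -83.33 points (ES minus EpiSC_AFX), beside -33.33 over all genes with a peak. At equal list length 4 of the genes had a gene-end peak, and their median was -25 points, beside 0 over all genes with a peak; the 2 medians rest on different genes.

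The Epcam window held 1, 2 and 1 peaks in ES at equal list length, 3, 3 and 2 in EpiSC_AFX1 and 2, 3 and 3 in EpiSC_AFX2. ES replicate 2 therefore overlapped the lowest EpiSC_AFX libraries. The means were 1.33 ± 0.577 (SD, n = 3) and 2.67 ± 0.516 (SD, n = 6), and the exact permutation test gave p = 0.0357 and an adjusted p of 0.283 over 17505 genes. Grhl2 averaged 1.00 ± 0 and 1.83 ± 0.753 (permutation p = 0.155, adjusted 0.504), Zeb2 0 and 0.333 ± 0.516 (permutation p = 0.5, adjusted 0.807), Cdh1 1.00 ± 0 and 1.17 ± 0.408, and Vim 1.33 ± 0.577 and 0.667 ± 0.816 (permutation p = 0.381, adjusted 0.759). The direction turned in the full lists for Vim, and with peaks ranked by fold enrichment for Cdh1. No gene passed the adjusted threshold (0.0%), while 2545 had an unadjusted permutation p under 0.05. With the full lists, Cdh1, Grhl2 and Zeb2 passed it, each with an adjusted permutation p of 0.0324 and all EpiSC_AFX libraries above all ES libraries, and so did 36.7% of all genes.

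**Figure D4:**
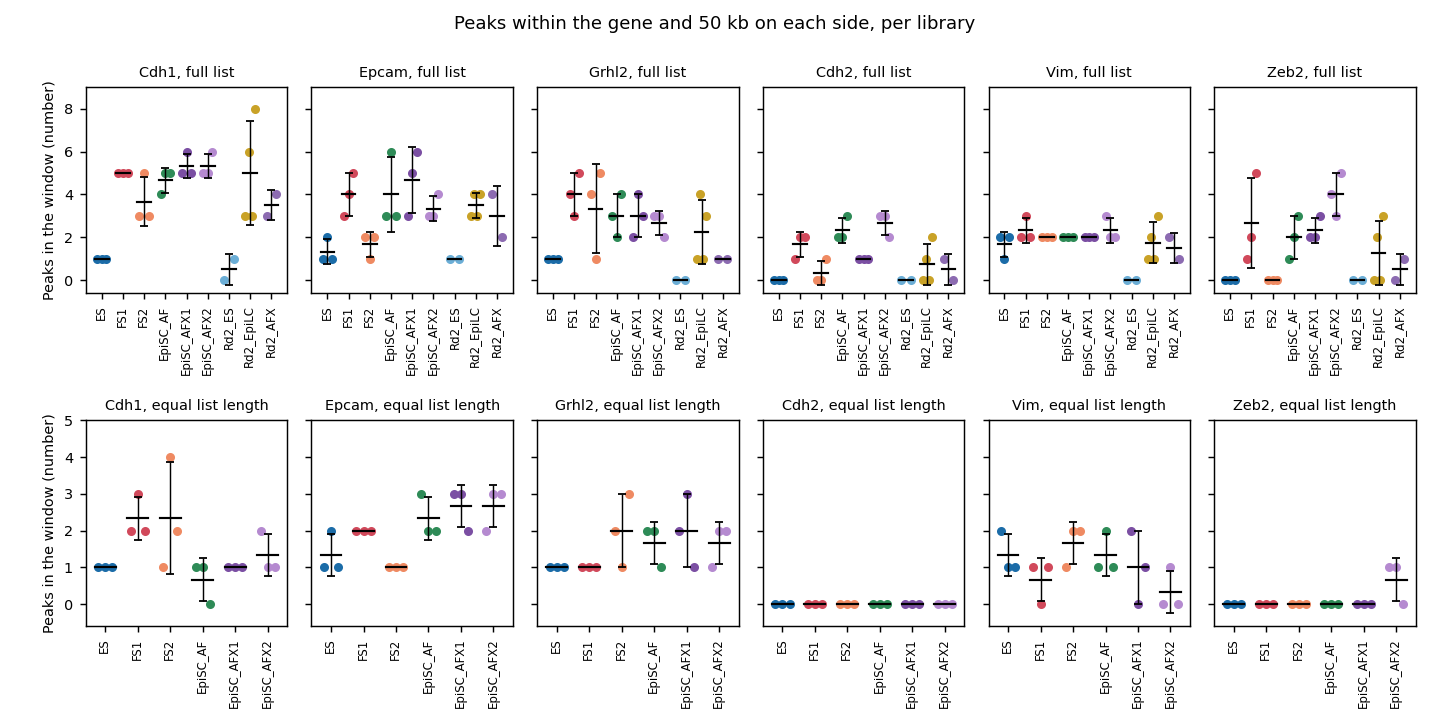
Number of peaks in the window of each gene (the gene and 50 kb on each side) per library, for the full lists (upper panels, all 9 groups) and at equal list length (lower panels, the 6 first-set groups). Points are libraries, horizontal bars are group means and error bars are SD. In the full lists ES libraries hold 0 to 2 peaks per window. At equal list length Cdh2 is at 0 throughout, and Epcam is at 1 in each FS2 library and at 2 or 3 in each EpiSC library.

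FS and EpiSC_AFX, the comparison of formative with primed culture, had no separated region among 15 at equal list length (0.182% of all regions) or among 41 in the full lists (0.101%). Epcam averaged 1.5 ± 0.548 peaks in FS (2, 2 and 2 in FS1, then 1, 1 and 1 in FS2) and 2.67 ± 0.516 in EpiSC_AFX. The FS1 libraries overlapped EpiSC_AFX and the FS2 libraries did not. The exact permutation test over 924 assignments gave p = 0.0216 and an adjusted p of 1. Cdh1 went the other way, at 2.33 ± 1.03 in FS and 1.17 ± 0.408 in EpiSC_AFX (permutation p = 0.0541, adjusted 1), and its direction turned in the full lists, where FS averaged 4.33 ± 1.03 and EpiSC_AFX 5.33 ± 0.516. Grhl2, Vim and Zeb2 differed by -0.33, 0.50 and -0.33 peaks (FS minus EpiSC_AFX), with permutation p of 0.708, 0.472 and 0.455, and the direction for Grhl2 turned in the full lists. No gene was called in the genome (0.0%), and 472 had an unadjusted permutation p under 0.05.

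ES against EpiSC_AF, in which an exact test of 3 against 3 libraries cannot go below p = 0.1, gave the only separated region at equal list length. It was the Epcam end, present in 3 of 3 EpiSC_AF and 0 of 3 ES libraries, 1 of 11 regions beside 5.59% of all 18197 regions in that direction and 8.93% in either. In the full lists 7 of 27 regions were separated in that direction, beside 12.5% of all regions (13.3% in either). Gene ends made 2 of 6 (Epcam and Zeb2), beside 17.3% of all genes. The 7 regions included those of the Cdh1 window 41.8 kb below and 16.1 kb inside the gene, and both Epcam regions named above. The others were the Grhl2 region 1.22 kb inside the gene, the Cdh2 region 1.89 kb inside its higher end, and the Zeb2 end. Mean peak number at equal list length was 1.33 ± 0.577 in ES and 2.33 ± 0.577 in EpiSC_AF for Epcam and 1.00 ± 0 and 0.667 ± 0.577 for Cdh1 (SD, n = 3 each), the latter with the opposite direction in the full lists. No gene was called by the permutation test (0.0%) and none had an unadjusted p under 0.05, which this design cannot reach. ES and EpiSC_AFX are each shared by several of these comparisons, so their values are not independent of each other.

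In the Rd2 set, 3 of 30 regions had a peak in all 4 Rd2_EpiLC libraries and in neither Rd2_ES library, beside 11.3% of all 32771 regions. All 3 were gene ends, those of Cdh1, Epcam and Grhl2, or 3 of 6 at gene ends beside 22.5% of all genes. Vim was found in 3 and Cdh2 and Zeb2 in 1 of the 4 Rd2_EpiLC libraries. Rd2_ES held 1 and 2 peaks in the 6 windows, none at an end of the 6 genes, from lists of 471 and 2576 peaks. Rd2_EpiLC against Rd2_AFX gave 0 of 31 separated regions, beside 1.85% of all regions. Cdh1, Epcam and Grhl2 ends had a peak in all 6 libraries of both groups. An exact test of 2 against 4 libraries cannot go below p = 0.0667.

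Other genes of epithelial identity were counted at their ends by a list of 33. In the full lists ES libraries had a peak at 4 to 7 of these genes, FS2 at 13 to 17, FS1 at 24 to 26, EpiSC_AF at 24 to 29, EpiSC_AFX1 at 21 to 29 and EpiSC_AFX2 at 26 to 30. At equal list length the ranges drew together, to 4 to 5 in ES, 5 to 8 in FS1, 6 to 10 in FS2, 10 to 13 in EpiSC_AF, 9 to 10 in EpiSC_AFX1 and 12 in every EpiSC_AFX2 library. Over all 21887 genes, 4518 to 4671 had an end peak at equal list length in ES libraries, 4946 to 5672 in FS libraries and 5454 to 5715 in EpiSC libraries, so the order of ES below EpiSCs was not particular to the list. In the full lists the count over all genes was 4671 to 5708 in ES, 7032 to 8263 in FS2 and 11235 to 12062 in FS1. It was 9280 to 11018 in EpiSC_AF, 10019 to 11933 in EpiSC_AFX1 and 11416 to 11872 in EpiSC_AFX2, so a rise from ES was seen over all genes too. Grhl1, a close relative of Grhl2, and Jup, which encodes plakoglobin of junctions, had an end peak in all 18 first-set libraries at equal list length.

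At equal list length 3 of the 21 epithelial-list genes with an end peak were separated towards EpiSC_AFX against ES, beside 3.09% of all genes with a peak at an end. They were Cdh3, which encodes P-cadherin and neighbours Cdh1, Pkp2, a desmosomal plaque gene, and Elf3, an epithelial transcription factor. Pard3, a polarity gene, was separated towards ES, 1 of the same 21, beside 0.997% of all genes. Against EpiSC_AF the same count, over 20 listed genes with an end peak, named 4 towards EpiSC_AF, beside 6.17% of all genes. They were Cdh3, Esrp1 (an epithelial splicing regulator), Pkp2 and Spint2. Pard3 alone was named towards ES, beside 1.56%. No gene of the list was separated between ES and FS (0.816% of all genes towards ES and 1.94% towards FS) or between FS and EpiSC_AFX (0.0102% and 0.0203%). The median difference over listed genes with a peak was -16.67 points for ES minus FS, -33.33 for ES minus EpiSC_AFX and -33.33 for ES minus EpiSC_AF, beside 0 over all genes in each.

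A list of 25 mesenchymal genes gave a different count at equal list length. ES libraries had a peak at 4 of them, and the other groups at 3 to 7, so the ranges overlapped. Sparc, a matrix glycoprotein, and Itga5, an integrin subunit, were separated towards EpiSC_AF against ES. They made 2 of the 9 listed genes with an end peak there, beside 6.17% of all genes. No gene of the list was separated in the other 3 comparisons, beside 0.816% and 1.94% of all genes towards ES and FS, 0.997% and 3.09% towards ES and EpiSC_AFX, and 0.0102% and 0.0203% towards FS and EpiSC_AFX. The median difference was -8.33 points for ES minus FS and 0 for both ES minus EpiSC_AFX and ES minus EpiSC_AF, beside 0 over all genes in each. Snai1 and Fn1, each with a peak in 17 of 18 libraries at equal list length, came nearest to all 18, and no mesenchymal gene had all 18; these 2 were chosen after their values were seen. In the full lists the count ran from 4 in ES to between 8 and 17 in the other groups. Over all genes it also rose, from 4671 to 5708 in ES libraries to between 7032 and 12062 in the other first-set libraries.

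**Figure D5:**
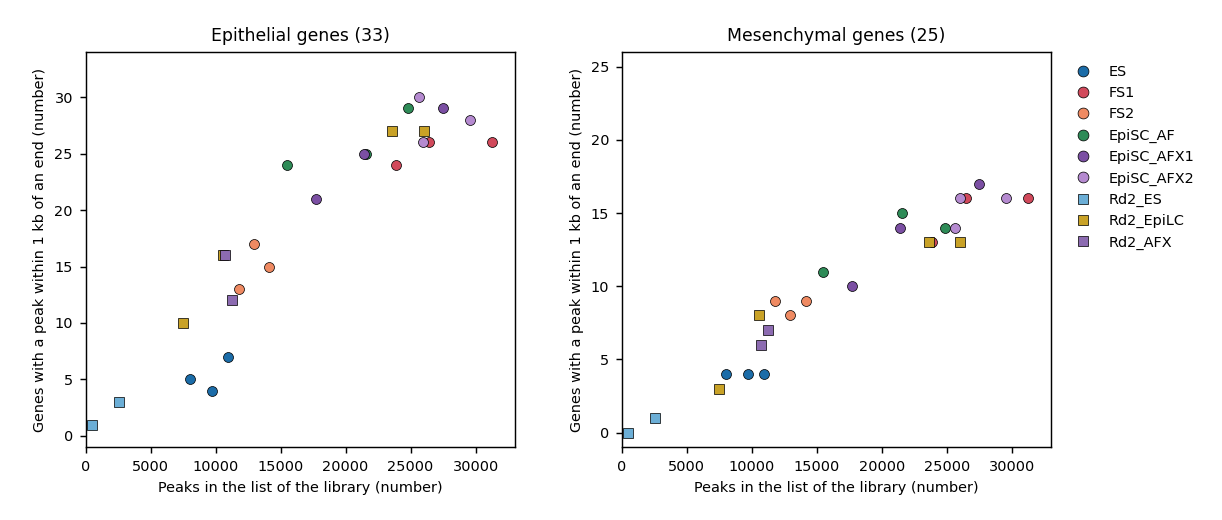
Genes of the epithelial list (left, of 33) and of the mesenchymal list (right, of 25) with a peak within 1 kb of an end in the full list of each library, against the number of peaks in that list. Circles are first-set and squares are Rd2 libraries, coloured by group. Both counts are higher in libraries with longer lists, from 1 and 0 genes in the Rd2_ES list of 471 peaks to 30 and 17 at most.

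Cells of the cultures other than pluripotent cells were looked for with 8 markers of feeder fibroblasts. The list shares 5 genes with the mesenchymal list. ES libraries had a peak at none of the 8, FS1 at 4 to 5, FS2 at 2, EpiSC_AF at 2 to 3, EpiSC_AFX1 at 3 to 5 and EpiSC_AFX2 at 4 to 5, and at equal list length the last 5 groups had 0 to 2. Col3a1, Prrx1 and Pdgfra had none in any library, and Thy1 and Pdgfrb were the only ones with a peak at equal list length. The count of the 8 markers in the full lists was thus 0 in ES, whose lists are the shortest of the first set, and above 0 in every other first-set library. Of the markers, 62.5% had a peak in at least 1 FS library, 62.5% in EpiSC_AFX and 50% in EpiSC_AF. Over all genes these shares were 60.1%, 61.7% and 55.3%, so the marker shares there were near those of all genes. In ES the shares were 0% of markers and 34.8% of all genes. Over all genes FS2 libraries also had fewer end peaks (7032 to 8263 genes) than FS1 libraries (11235 to 12062). Cdh2 and Zeb2 had no gene-end peak in ES. In FS2, with 2 markers in each library, they had one in 1 of 3 and 0 of 3 libraries. The part of such cells in the Cdh2, Zeb2 and Vim peaks was not tested.

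The genes whose peak number over the 18 first-set libraries at equal list length most resembled that of each member lay elsewhere in the genome, and the likeness is a description over libraries that share groups. For Cdh1 they were Armc8 and Exoc3 (Pearson r = 0.84 each) and Extl1 (0.81). Epcam resembled Gzf1, Napb and Nxt1 (0.86 each), and Grhl2 resembled Gm13030 and Pla2g2e (0.77 each) and Col5a3 (0.76). Vim resembled Fam169b and Pgpep1l (0.83 each) and Mfhas1 (0.78). For Zeb2, whose count is 1 in 2 libraries and 0 in 16, 6 genes were tied at r = 1, of which Cd48, Cdh12 and Fundc1 come first by symbol. The named genes were not screened for lying near each other. Those with equal r may therefore share the same peaks and need not be separate matches.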

How the data were processed

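The 26 deposited lists, 1 per library, were peaks in the broadPeak layout, called per sample by the authors. The submitters' processing notes name Trim Galore, Bowtie, Picard, MACS2 and the build mm10 without roles or versions; parameters and any control are not given in the sources used here. Each deposited peak carries the authors' fold enrichment (a ratio), −log10 p, −log10 q and a score. The deposited score is 10 times the −log10 q cut to a whole number and was not used. These values ranked or described peaks within their own list only. The lowest −log10 q was about 1.

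Genes were the 21887 protein-coding genes of the RefSeq table of GRCm38.p6, the build that mm10 also names. Peaks of all lists were merged into regions, and a library held a region where its peaks shared at least 1 bp with it. A region was separated where every library of one type and none of the other had a peak. Fisher's exact test (two-sided) was run per region and an exact permutation test (two-sided) on peak number per gene, each with Benjamini-Hochberg adjustment over all regions or genes tested and a threshold of 0.05. No region passed the adjusted Fisher threshold in any comparison; at equal list length 1464, 1672, 155 and 0 regions had an unadjusted p under 0.05 in ES against FS, ES against EpiSC_AFX, FS against EpiSC_AFX and ES against EpiSC_AF.

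The genes, lists and alternatives were chosen with earlier results of these data known. Regions named by rule were those separated at equal list length, those in all 18 first-set libraries, and for each gene the region held by most first-set libraries; the other regions described were chosen after their values were seen, and 1 region that the rule names is counted in the totals but not reported here. List genes were named where separated at equal list length, up to 4 per list, direction and comparison. Alternatives were full lists, ranking by fold, a −log10 q of at least 5, flanks of 20 and 100 kb, other overlap rules, a replicate block and leaving out each library. Any pair of the 26 libraries shared at most 0.117% of peaks with identical coordinates, as a share of the shorter list. The permutation code was tested on simulated data. Python 3.11.15, numpy 2.4.6, scipy 1.17.1, pandas 2.3.3 and matplotlib 3.10.9 were used.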

Additional observations from a re-analysis of the deposited data

Results flagged for a closer look

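At equal list length the Cdh1 window held 2 peaks in EpiSC_AFX2 replicate 1 and 1 peak in each of the other 5 EpiSC_AFX libraries, so this library was flagged. The second peak was the intragenic one at chr8:106619469-106620044, which ranked 7716 there, just inside the strongest 8044, and 8452 in EpiSC_AFX1 replicate 3, just outside. The rule flags a library whose gap to the next is large beside the range of its group. Where all other libraries are tied, a difference of 1 peak always meets it, so the flag shows little here. In all, 15 gene and group combinations were looked at, and how often chance alone would raise a flag was not computed.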

How the results depend on the processing

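The number of separated regions depended on list length and flank. For ES against EpiSC_AFX it was 0, and 7 in the full lists and 1 with 100 kb flanks; for ES against EpiSC_AF it was 1, and 7 and 2. For Rd2_ES against Rd2_EpiLC it was 3, and 0 at the length of the shortest Rd2 list (471 peaks), 0 for −log10 q values from 5 upwards and 5 with 100 kb flanks; Rd2_EpiLC against Rd2_AFX gave 0, and 2 with 100 kb flanks. FS against EpiSC_AFX stayed at 0 with lists of 11796 peaks each, an alternative added after seeing the data. Leaving out 1 library gave 0 to 1 for ES against FS (1 without FS2 replicate 1, the Cdh1 region 16.1 kb inside the gene), 0 to 1 for ES against EpiSC_AFX (1 without EpiSC_AFX1 replicate 3, the Epcam end), 1 to 2 for ES against EpiSC_AF (2 without EpiSC_AF replicate 3, adding the Grhl2 region 1.22 kb inside the gene), 3 to 6 for Rd2_ES against Rd2_EpiLC (6 without Rd2_EpiLC replicate 3) and 0 to 1 for Rd2_EpiLC against Rd2_AFX (1 without Rd2_EpiLC replicate 3 or Rd2_AFX replicate 1). The genes called for ES against EpiSC_AFX were 0, and 7383 in the full lists and 5280 with a −log10 q of at least 5 (32.7% of genes, Epcam among them with an adjusted permutation p of 0.0365). Correlations of same-numbered libraries ran from -0.043 to 0.040 over 45 pairs, so the libraries share only a number. With permutation within replicate numbers, the replicate block, 0 genes were called in each of the 4 comparisons, and 1534, 1936, 327 and 0 had an unadjusted p under 0.05.

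Of 273 alternatives run on 18 differences in peak number, 255 neither turned the direction nor changed the call, and 14 turned the direction. A difference of 0 has no direction and was counted as not turned. For Vim in ES against EpiSC_AF it was 0 at equal list length, while the full-list means were 1.67 and 2. The turned differences, first minus second group, were for Vim -0.5 (full lists), -0.5 (−log10 q), -0.17 (without ES replicate 1) and -0.07 (without FS1 replicate 2) in ES against FS (range when leaving out 1 library -0.17 to 0.33), -0.5 (full lists) and -1.0 (−log10 q) in ES against EpiSC_AFX, and -0.5 (−log10 q) in FS against EpiSC_AFX. For Cdh1 they were 0.5 (ranked by fold enrichment) in ES against EpiSC_AFX, -1.0 (full lists) in FS against EpiSC_AFX, and -3.67 (full lists), -0.33 (−log10 q) and -0.67 (100 kb flanks) in ES against EpiSC_AF. For Grhl2 in FS against EpiSC_AFX they were 0.83 (full lists) and 0.17 (100 kb flanks). Full lists, a −log10 q minimum and wider flanks change which peaks are counted; beyond that the cause was not tested. Read depth is unknown, so a peak missing from a short list does not show closed chromatin.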
